A study of Mus musculus with 6 samples.

Results

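Immediate early genes are switched on within minutes of a stimulus, without any new protein being made first. In neurons, calcium entry and growth factor signals reach transcription factors that are already in place, such as CREB and the serum response factor, and these turn on the first genes of the response. Many of those genes encode transcription factors themselves, which go on to control a later set of genes, while others encode enzymes that end the signal. In the cortex, where circuits are still immature before birth, their transcripts are used as a readout of recent stimulation.

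The genes described are the 10 listed as Fos, Fosb, Jun, Junb, Egr1, Egr2, Npas4, Nr4a1, Ier2 and Dusp1, found by gene symbol in a table of 59484 features. The symbols of 8 of the 10 were matched, and all 8 had a mean of at least 10 normalized counts, the minimum for testing that 18970 features met. The series compared polyadenylated RNA from the cortex of wild-type and Sam68:Slm2 double knockout (dKO) mouse embryos of a C57BL/6 colony at embryonic day 18.5, with 3 libraries per genotype. Sam68 and SLM2, encoded by Khdrbs1 and Khdrbs3, are related RNA-binding proteins that regulate splicing. Both knockouts are constitutive, and dKO mice came from matings of Sam68+/−:Slm2−/− parents, so that the wild-type embryos had other parents. Single knockouts were not analysed here, and whole cortex was sequenced in bulk. The deposited values were gene counts divided by a size factor per library, called normalized counts here, and whole reads could be recovered from them. The libraries held 37301024, 32966884 and 39654253 reads in wild-type replicates 1 to 3 and 40896541, 34808551 and 31837922 in dKO replicates 1 to 3. A single read was worth 0.877 to 1.16 normalized counts. The labels do not say whether the libraries came from separate embryos, so that *P*-values measure the spread between these samples.

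Both targeted genes were lower in each dKO library than in any wild-type library, as the labels have it, although which exons the alleles lack was not read here. Khdrbs1 stood at 8231, 8436 and 7974 normalized counts in the wild-type libraries and at 114, 197 and 146 in the dKO libraries. Khdrbs3 stood at 13543, 15215 and 12764 against 7060, 6350 and 6547.

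The immediate early genes lay on both sides of the wild-type level in the dKO cortex, and most of them varied widely between libraries of the same genotype. None of the 8 members passed the threshold (0 called by limma at an adjusted *P* under 0.05, where 0.1% of all features tested were called), edgeR called 0 beside 0.1% of all features, and DESeq2 called 1, which was Fosb, beside 1.06% of all features. At an unadjusted *P* under 0.05 the limma test gave 3 of 8 members, against 11.5% of all features tested, with Fosb and Dusp1 higher in the dKO and Npas4 lower, while edgeR and DESeq2 each gave 2, where 11.7% and 11.6% of all features passed. That limma count of 3 was 0 without the trend and robust options (9.88% of all features) and 0 without wild-type replicate 1 (8.06%). It was 1 without dKO replicate 3 (6.47%), namely Dusp1. Without wild-type replicate 2 it was 2, Egr1 and Nr4a1 (14.3%), and without wild-type replicate 3 it was 3, Fos, Ier2 and Dusp1 (7.35%). Without dKO replicate 1 it was 2, Fos and Fosb (11.9%), and without dKO replicate 2 also 2, Npas4 and Dusp1 (12.2%). The genes behind the count thus changed with the library left out. In 0 of 8 members did the ranges of the 2 genotypes stay apart, compared with 16.4% of features tested. The log2 fold change was positive for 4 members and negative for 4, with a median of −0.08 over the 8, beside 0.00 over all features tested. The median residual SD within genotypes on the log2 scale was 0.65 for the members and 0.19 for all features tested.

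**Figure D1:**
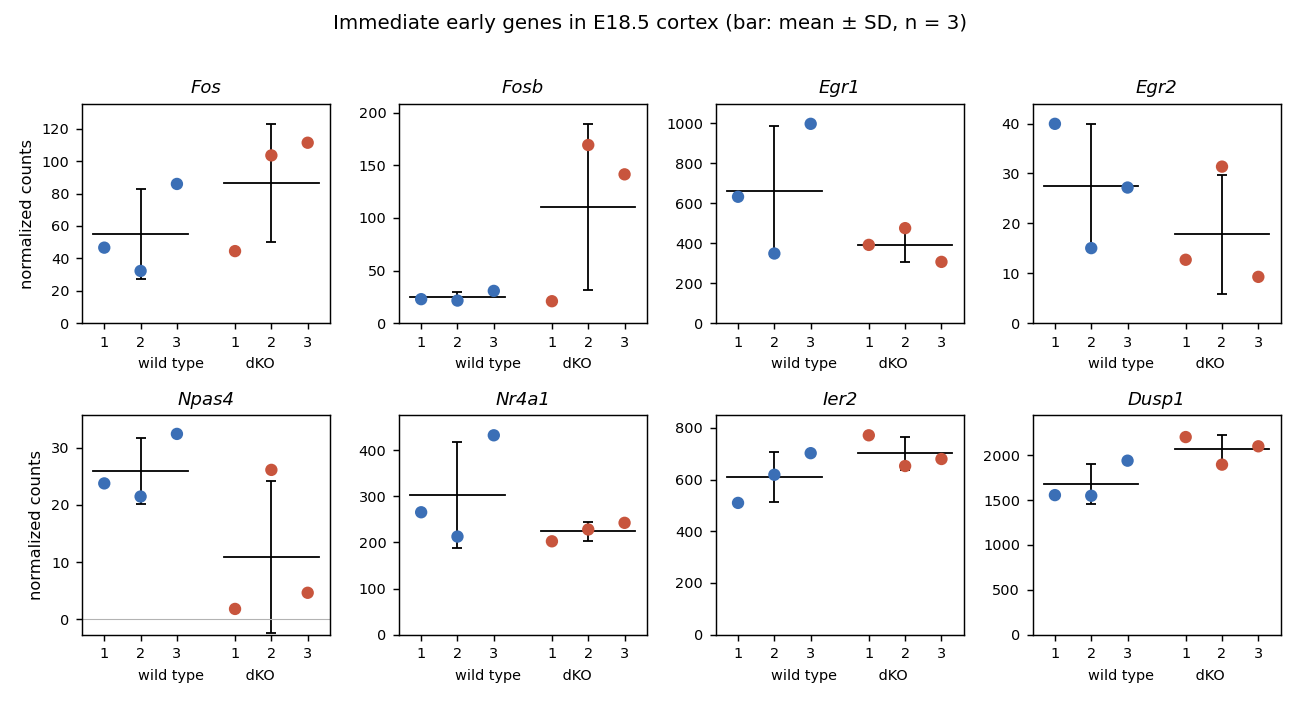
Normalized counts (y axis, linear and from 0 or just below) of the 8 members found by symbol in each library (x axis, replicates 1 to 3 of wild type in blue and of dKO in red), where horizontal lines are means and bars SD (n = 3). Fosb stands at 169 and 142 in dKO replicates 2 and 3 and at 30.7 or less in the other 4 libraries, while Egr1, Npas4 and Nr4a1 are highest in wild-type replicate 3.

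Among the transcription factors of the FOS family, which pair with JUN proteins to form the AP-1 complex, Fos (GSMG0008335, chr12:85473889-85477273 in mm10, as all positions of features here) had 46.6, 32.2 and 85.9 normalized counts in wild-type replicates 1 to 3 and 44.5, 104 and 111 in dKO replicates 1 to 3. The highest values were thus in dKO replicates 2 and 3, but dKO replicate 1 lay below wild-type replicates 1 and 3, so that the genotypes overlapped. Its mean was 54.9 ± 27.8 in wild type and 86.4 ± 36.6 in the dKO (SD, n = 3). The difference was 0.65 on the log2 scale (SE 0.43, 95% confidence interval −0.30 to 1.60), with an adjusted *P* of 0.575 by limma and an exact permutation *P* of 0.3. Leaving out single libraries moved the value for Fos from 0.33, without wild-type replicate 2, to 1.07, without dKO replicate 1, and it was 1.03 without wild-type replicate 3 and 0.42 without dKO replicate 3. The smallest exact *P* that 3 against 3 libraries allow is 0.1.

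Fosb, which encodes a second FOS-family protein and its long-lived truncated form, was likewise highest in dKO replicates 2 and 3. Unlike Fos, which had 85.9 normalized counts in wild-type replicate 3, it was low there. Fosb (GSMG0035578, chr7:19302696-19310045) had 22.8, 21.5 and 30.7 normalized counts in the wild-type libraries and 20.9, 169 and 142 in the dKO libraries. The 3 wild-type libraries and dKO replicate 1 lay close together, and dKO replicates 2 and 3 stood 6.78 and 5.66 times above the wild-type mean, so that the groups overlapped through a single dKO library. These values rest on 24, 20 and 35 reads in wild type and on 23, 162 and 122 reads in the dKO, and the counting intervals (exact Poisson, 95%, counting error only) of dKO replicate 3, 101 to 146 reads, and dKO replicate 1, 14.6 to 34.5 reads, were far apart. The means were 25 ± 4.97 and 111 ± 78.9 (SD, n = 3). For Fosb the log2 fold change of 1.66 (SE 0.69, 95% confidence interval 0.10 to 3.22) had an unadjusted *P* of 0.0398 and an adjusted *P* of 0.411 by limma, and the exact permutation *P* was 0.4. Leaving out dKO replicate 1 gave 2.60 (SE 0.32, adjusted *P* 0.0236 by limma), and DESeq2 on recovered reads gave 2.14 with an adjusted *P* of 0.0169, while edgeR gave 2.14 with an adjusted *P* of 0.334. Without dKO replicate 2 the log2 fold change of Fosb was 1.12 (SE 0.67, unadjusted *P* 0.13 by limma). Without dKO replicate 3 it was 1.25 (SE 0.73, unadjusted *P* 0.122 by limma). Over all the alternatives run, the adjusted *P* of Fosb ranged from 0.0169 to 0.794.

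The EGR genes encode zinc-finger transcription factors, and both members were lower on average in the dKO. Egr1 (GSMG0018220, chr18:34859823-34864981) had 632, 348 and 996 normalized counts in the wild-type libraries and 391, 475 and 306 in the dKO libraries. Wild-type replicates 1 and 3 were above all 3 dKO libraries, and wild-type replicate 2 was not. The means were 658 ± 325 and 391 ± 84.3 (SD, n = 3), so that the wild-type libraries spread more widely than the dKO libraries. For Egr1 the log2 fold change of −0.65 (SE 0.36, 95% confidence interval −1.47 to 0.18) had an adjusted *P* of 0.517 by limma and an exact permutation *P* of 0.3. It was −0.29 without wild-type replicate 3 and −1.04 without wild-type replicate 2 (SE 0.23, adjusted *P* 0.116 by limma).

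Egr2 (GSMG0003109, chr10:67537868-67542187), known for its role in myelinating glia and hindbrain patterning, was far less abundant. It had 39.9, 15.0 and 27.2 normalized counts in the wild-type libraries and 12.7, 31.4 and 9.28 in the dKO libraries. Wild-type replicate 1 was the highest and dKO replicate 3 the lowest, and the groups overlapped from both sides. Its log2 fold change was −0.67 (SE 0.54, adjusted *P* 0.642 by limma). With single libraries left out, Egr2 lay between −0.33, without dKO replicate 3, and −1.16, without dKO replicate 2. It was −0.36 without wild-type replicate 1 and −1.03 without wild-type replicate 2.

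Npas4 encodes a transcription factor that is induced in neurons by calcium entry rather than by growth factors, and it was the member with the lowest dKO mean relative to wild type. Npas4 (GSMG0019959, chr19:4984354-4990316) had 23.8, 21.5 and 32.4 normalized counts in the wild-type libraries and 1.82, 26.1 and 4.64 in the dKO libraries. The dKO libraries were split, with replicate 2 inside the wild-type range and replicates 1 and 3 below every wild-type library. The reads behind them were 25, 20 and 37 in wild type and 2, 25 and 4 in the dKO, with counting intervals of 0.242 to 7.22 reads for dKO replicate 1 and 1.09 to 10.2 reads for dKO replicate 3. The mean was 25.9 ± 5.78 in wild type and 10.9 ± 13.3 in the dKO (SD, n = 3). The log2 fold change of −1.81 (SE 0.75, 95% confidence interval −3.47 to −0.15) had an unadjusted *P* of 0.035, an adjusted *P* of 0.400 by limma and an exact permutation *P* of 0.3. Without dKO replicate 2 it was −2.73, and without dKO replicate 1 it was −1.10. On recovered reads edgeR gave −1.25 (unadjusted *P* 0.124) and DESeq2 −1.26 (unadjusted *P* 0.109), and the limma value was −2.05 with a pseudocount of 0.1 and −0.95 with a pseudocount of 10. The same dKO replicate 2 was thus the highest dKO library for both Fosb and Npas4, whereas dKO replicate 3 was high for Fosb and low for Npas4.

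Nr4a1 encodes an orphan nuclear receptor that responds both to activity and to growth factors. Nr4a1 (GSMG0013663, chr15:101266846-101274795) had 265, 213 and 432 normalized counts in the wild-type libraries and 202, 228 and 242 in the dKO libraries. The dKO libraries lay close together, and wild-type replicate 3 stood apart above the rest. The means were 303 ± 115 and 224 ± 20.3 (SD, n = 3). For Nr4a1 the log2 fold change of −0.37 (SE 0.23, adjusted *P* 0.553 by limma) was −0.09 without wild-type replicate 3 and −0.60 without wild-type replicate 2.

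The last pair of members had the smallest scatter within genotypes. Ier2 (GSMG0038682, chr8:84659551-84662854), which encodes a small nuclear protein, had 510, 619 and 702 normalized counts in wild type and 771, 653 and 680 in the dKO. Its libraries formed a nearly continuous series, with wild-type replicate 1 lowest and dKO replicate 1 highest. Dusp1 (GSMG0017278, chr17:26505591-26508476), which encodes a phosphatase that switches off MAP kinases and so ends the signal, had 1556, 1549 and 1940 normalized counts in wild type and 2203, 1896 and 2100 in the dKO. Wild-type replicate 3 lay just above dKO replicate 2, and this was the only place where the genotypes crossed. The means of Dusp1 were 1682 ± 224 and 2067 ± 157 (SD, n = 3). The log2 fold change of 0.30 (SE 0.11, 95% confidence interval 0.06 to 0.54) had an unadjusted *P* of 0.0175 and an adjusted *P* of 0.368 by limma, the smallest adjusted *P* among the 8 members, with an exact permutation *P* of 0.2. For Ier2 the log2 fold change was 0.21 (SE 0.13, adjusted *P* 0.567 by limma), which was 0.09 without wild-type replicate 1, 0.14 without dKO replicate 1 and 0.32 without wild-type replicate 3.

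Unnamed features overlapped Fos, Egr2 and Dusp1, with means of 2.74, 2.26 and 71.3 normalized counts, and a strand setting for the counting was not given in the sources used here, so that reads shared with them cannot be told apart.

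No feature carried the symbols Jun and Junb, and features without a symbol at their positions were read instead, chosen by coordinates after their values had been seen and given as a description only. The JUN proteins are the partners of FOS proteins in AP-1. The feature at Jun (GSMG0028080, chr4:95050234-95052171), which covers 60.8% of the annotated gene, had 2679, 2053 and 2971 normalized counts in wild type and 3058, 2768 and 2313 in the dKO. The feature that spans Junb (GSMG0038695, chr8:84972736-84978719) had 283, 230 and 405 in wild type and 272, 295 and 237 in the dKO. Both sets of libraries overlapped throughout, with log2 fold changes of 0.09 (SE 0.14) and −0.16 (SE 0.20). Wild-type replicate 3 was the highest wild-type library and wild-type replicate 2 the lowest at both.

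Levels can be compared between genes only per length, so normalized counts of the genes matched by symbol were divided by the GENCODE exon length of each gene in kilobases. The limits of the counted features differ from those gene models, for example for Ier2, whose feature (chr8:84659551-84662854) is wider than the gene model (chr8:84661331-84662852), so that levels per kilobase are approximate. On that scale, among the 8 genes matched by symbol, Dusp1 at 508 ± 67.6 per kilobase and Ier2 at 401 ± 63.4 had the highest wild-type levels with these lengths, and no order between them is read. Egr1 came next at 147 ± 72.4 and Nr4a1 at 86.5 ± 32.7, and those neighbours were within their spread of each other. Fos followed at 23.3 ± 11.8, Egr2 at 8.06 ± 3.67, Npas4 at 6.26 ± 1.40 and Fosb at 4.0 ± 0.796 (SD, n = 3 for each). Egr2 and Npas4 did not differ beyond their spread. In the dKO Fosb, at 17.7 ± 12.6 per kilobase, stood above Egr2 at 5.23 ± 3.50 and Npas4 at 2.63 ± 3.22, so that the least abundant member of the wild-type cortex was not the least abundant of the dKO cortex, although the SD of Fosb there was as large as its distance from Egr2. Dusp1 and Ier2 stood at 624 ± 47.3 and 461 ± 40.9 per kilobase in the dKO with the same lengths (SD, n = 3).

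Scatter followed the same division of the members. The residual SD within genotypes reached 1.20 for Npas4 and 1.18 for Fosb on the log2 scale, above 98.4% and 98.2% of the features tested. It was 0.78 for Egr2, 0.71 for Fos and 0.58 for Egr1, above 94.4%, 93.0% and 89.0% of features. Nr4a1 at 0.38 was above 76.8%, and Ier2 and Dusp1, at 0.19 and 0.15, lay below the middle, at the 48.2 and 38.3 percentiles. The 4 members with the lowest level per length thus had the widest scatter.

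Taken library by library, wild-type replicate 3 was above the 6-library mean of the log2 values for 7 of 8 members, all but Fosb. It was also the highest wild-type library for 7 of 8 members, all but Egr2, where 32.2% of features tested had their wild-type maximum there. Wild-type replicate 2 was the lowest wild-type library for 7 of 8 members, Ier2 being the exception, where 33.3% of features had their minimum there. Wild-type replicate 1 lay between them for 6 of 8 members, all but Egr2, where it was highest, and Ier2, where it was lowest, and it was above the 6-library mean for Egr1, Egr2, Npas4 and Nr4a1. In the dKO the libraries did not fall into one order. Replicate 1 was above the mean for Ier2 and Dusp1 alone, and was the lowest of all 6 libraries for Fosb, Npas4 and Nr4a1. Replicate 2 was above the mean for 6 of 8, all but Egr1 and Nr4a1, and replicate 3 for Fos, Fosb, Ier2 and Dusp1. The pair of FOS genes was therefore highest in dKO replicates 2 and 3, although Fos was also above its mean in wild-type replicate 3. The trio of Egr1, Npas4 and Nr4a1 was highest in wild-type replicate 3, and Ier2 and Dusp1 were highest in dKO replicate 1.

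Features outside the members whose profile over the 6 libraries was most like that of Fos, by the root mean square difference of centred log2 values among 12727 candidates, included Trf (0.23), Sdc4 (0.25), Tnfrsf12a (0.29), Ctss (0.30), Lcn2 (0.31), Saxo2 (0.31) and Fuom (0.32). The SD of the profile of Fos itself was 0.67. All 7 other members were farther away, with Dusp1 at 0.58, Nr4a1 at 0.63, Ier2 at 0.64, Fosb at 0.78, Egr1 at 0.81, Egr2 at 0.97 and Npas4 at 1.46. Trf, the nearest, encodes the iron carrier transferrin and had 485, 456 and 706 normalized counts in wild type and 457, 953 and 1123 in the dKO, again with dKO replicates 2 and 3 highest.

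The other genes of the early response were read from lists of related genes. Of 19 tested other early-response transcription factors, 0 were called by limma, beside 0.1% of all features tested. In either direction 0 had an unadjusted *P* under 0.05 by limma, beside 11.5% of all features, and the median log2 fold change was −0.02. Crem and Cebpb had log2 fold changes of −0.45 (SE 0.24) and −0.24 (SE 0.24). Egr3, a relative of Egr1, followed it over the wild-type libraries with 371, 174 and 441 normalized counts, against 252, 274 and 157 in the dKO. Fosl1, a FOS-family gene named after its values were seen, had 17.1, 7.52 and 19.3 in wild type and 10.9, 49.2 and 53.4 in the dKO. It divided the libraries as Fosb did, with dKO replicates 2 and 3 high and dKO replicate 1 within the wild-type range, and its log2 fold change was 1.12 (SE 0.62, adjusted *P* 0.506 by limma). Nr4a2 and Nr4a3, the relatives of Nr4a1, named likewise, had log2 fold changes of −0.11 and 0.04.

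Of 23 early-response effectors and feedback genes, 0 were called by limma and 7 had an unadjusted *P* under 0.05, all higher in the dKO, beside 11.5% of all features tested. These 7 were Ier5, Btg2, Gadd45g, Socs3, Dusp4, Zfp36 and Sik1, the last 4 of them named after their values were seen. Over all 23 genes the log2 fold change was positive for 14 and negative for 9, with a median of 0.09, and feedback genes named after their values were seen, such as Gadd45b (−0.41), Spry4 (−0.34) and Dusp6 (−0.12), were on the negative side. Btg2, an antiproliferative gene, had 740, 880 and 979 normalized counts in wild type and 1212, 1237 and 1176 in the dKO. Its genotypes did not overlap, with a log2 fold change of 0.49 (SE 0.11, adjusted *P* 0.229 by limma, exact permutation *P* 0.1). Ier5 gave 0.54 (SE 0.16, adjusted *P* 0.335 by limma), with 3260, 4638 and 3694 against 6556, 4442 and 5843 normalized counts. Gadd45g gave 0.44 (SE 0.19, adjusted *P* 0.420 by limma). Arc, which encodes a synaptic protein and is the classical activity marker among effectors, was also named after its values were seen. It had 131, 121 and 182 normalized counts in wild type and 140, 230 and 148 in the dKO. Its genotypes overlapped only through wild-type replicate 3.

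The late activity-regulated genes, which are transcribed downstream of the early factors, had a negative log2 fold change for 7 of 9 tested. Among the 9, 0 were called by limma, 3 were lower and 1 higher at an unadjusted *P* under 0.05, where 11.5% of all features tested passed in either direction, and the median log2 fold change was −0.40. Pcsk1, a prohormone convertase, had 99.9, 84.9 and 93.8 normalized counts in wild type and 50.8, 51.2 and 29.0 in the dKO, without overlap. The log2 fold change of Pcsk1 was −1.11 (SE 0.28, adjusted *P* 0.268 by limma). Nptx2, a secreted synaptic pentraxin, had 182, 163 and 183 against 131, 92.0 and 88.1, also without overlap (log2 fold change −0.78, SE 0.20, adjusted *P* 0.268 by limma). Rasgrp1 had 156, 59.1 and 196 against 58.1, 115 and 52.2, with overlap. Bdnf, a neurotrophin that is a standard target of activity, had 84.6, 68.7 and 158 against 142, 137 and 85.8, and was named, like Scg2 and Nrn1, after its values were seen. Scg2 was lower, with overlap and a log2 fold change of −0.74 (SE 0.27), and Nrn1 was higher, without overlap, at 0.44 (SE 0.16).

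**Figure D2:**
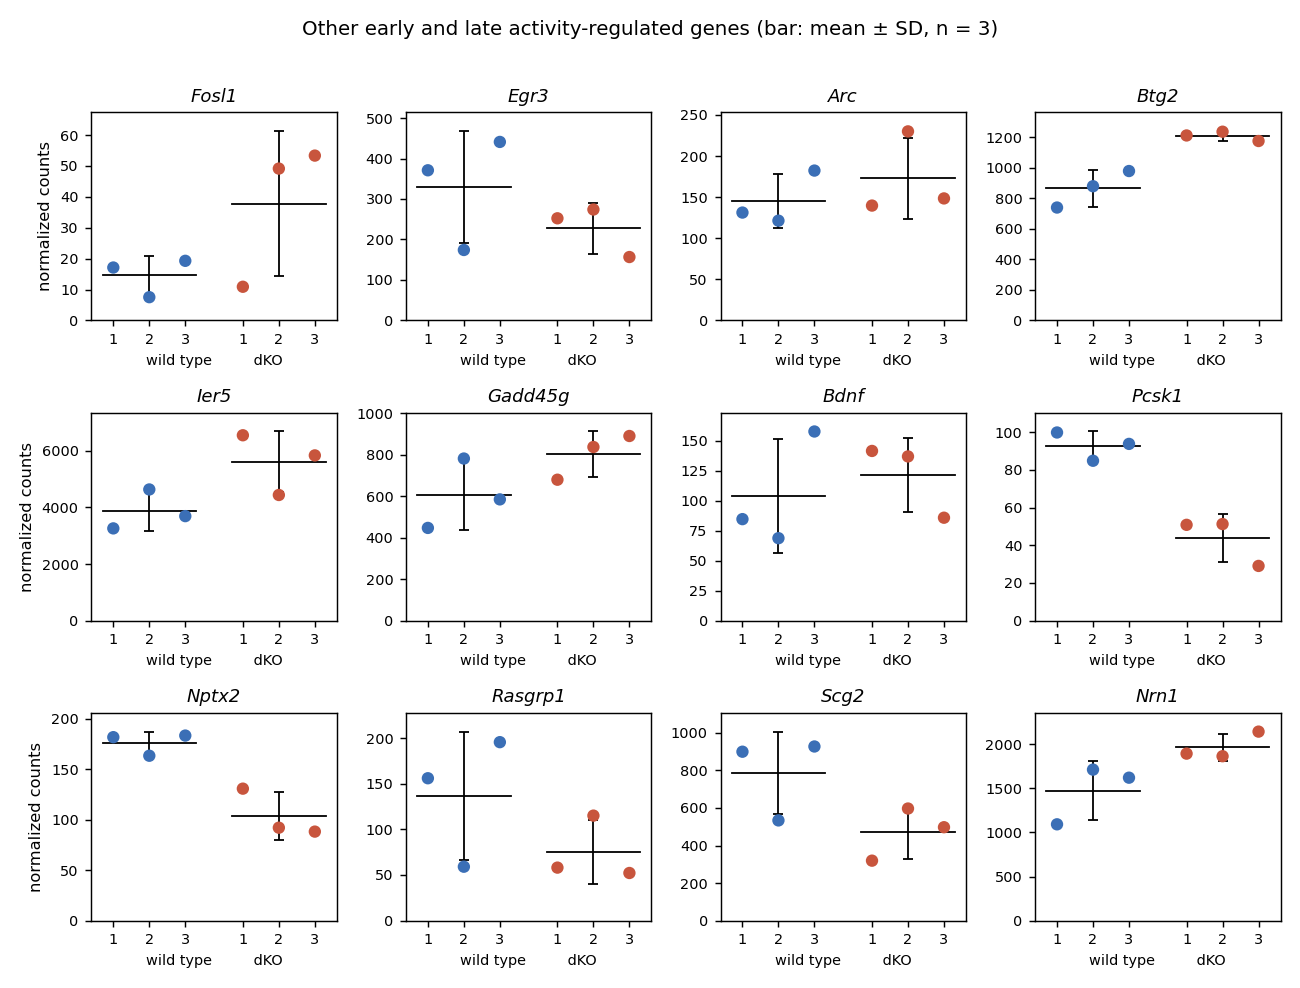
Normalized counts (y axis, linear from 0) of early-response and late activity-regulated genes outside the members in each library (x axis, replicates 1 to 3 of wild type in blue and of dKO in red), where horizontal lines are means and bars SD (n = 3). Btg2 in the dKO stands at 1176 to 1237, above all wild-type libraries, and Pcsk1 at 29.0 to 51.2, below them, while Fosl1 is high in dKO replicates 2 and 3 alone.

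The regulators upstream of the members had log2 fold changes from −0.18 to 0.23, with a median of 0.06. Of 21 tested, among them the kinases and CREB- and serum response factor-related genes, 0 were called by limma, beside 0.1% of all features tested. At an unadjusted *P* under 0.05 by limma there were 0, beside 11.5% of all features. The genotypes stayed apart for 2 higher and 2 lower regulators, Elk3, Elk4 and Rps6ka4 among them, where 16.4% of all features did so. Elk3 and Elk4, partners of the serum response factor, had the most positive values, 0.23 and 0.18, and Rps6ka4, a kinase that acts on CREB and histones, was at −0.18. Heat shock and unfolded protein genes, which respond to other stresses, had 0 of 10 called and 0 at an unadjusted *P* under 0.05 by limma, with a median of 0.09. Hypoxia genes had 0 of 11 called and 0 at an unadjusted *P* under 0.05 by limma, with a median of −0.10. For both lists these counts stand beside 0.1% and 11.5% of all features tested. Wild-type replicate 3 was the highest wild-type library for 10 of 11 hypoxia genes, where 32.2% of features tested had their wild-type maximum there.

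Markers of cortical projection neurons were listed with the general neuronal genes Tubb3, Map2 and Rbfox3, so that their sum does not stand for projection neurons alone. It was 275984, 285269 and 258641 normalized counts in wild type and 322495, 290109 and 331609 in the dKO. Tubb3 was most abundant, at 148988, 137245 and 143717 against 159016, 161506 and 166759. At an unadjusted *P* under 0.05 by limma 4 of 10 were higher in the dKO, namely Tubb3, Map2, Neurod2 and Bcl11b, with 0 called. For this and the other marker lists such counts stand beside 11.5% of all features tested, of which 0.1% were called. Counts of markers highest in wild-type replicate 3 among the wild-type libraries stand beside 32.2% of features tested. Markers of some other cells varied with the libraries that were high or low for the members. Meningeal fibroblast markers summed to 1003, 612 and 1758 normalized counts in wild-type replicates 1 to 3 and to 637, 643 and 569 in the dKO libraries, with wild-type replicate 3 the highest wild-type library for 8 of 8 markers. Between genotypes 8 of 8 had a negative log2 fold change, with a median of −0.80, 3 at an unadjusted *P* under 0.05 and 0 called by limma. Their most abundant gene was Col1a2, at 342, 146 and 513 against 164, 187 and 146. Striatal neuron markers summed to 4472, 3772 and 5308 against 3743, 5882 and 4755, and were highest in wild-type replicate 3 and dKO replicate 2. Their most abundant gene, Ppp1r1b, did not follow that pattern, at 2470, 2542 and 2166 against 2534, 2353 and 3263. Nor did Drd1, named after its values were seen, at 666, 668 and 500 against 574, 507 and 627. In this list wild-type replicate 3 was the highest wild-type library for 6 of 8 markers. For 6 of 8 dKO replicate 2 was the highest dKO library, beside 32.1% of features tested. Endothelial markers summed to 6251, 5309 and 6745 against 5311, 5711 and 4969, with Cldn5 most abundant, and 8 of 8 had a negative log2 fold change, with a median of −0.21, 2 at an unadjusted *P* under 0.05 and 0 called by limma. Microglial markers summed to 2728, 2301 and 3103 against 2423, 2399 and 2657, and wild-type replicate 3 was the highest wild-type library for 7 of 8, all but the most abundant, Csf1r. Radial glia markers summed to 47015, 42374 and 52952 against 47984, 53041 and 43004, with Fabp7 most abundant and wild-type replicate 3 the highest wild-type library for 6 of 8. Hes5, at 1052, 664 and 1383 against 722, 813 and 572 normalized counts, and Slc1a3 put the 6 libraries in the same order as Egr1. In the radial glia list 3 log2 fold changes were positive and 5 negative. Its 1 gene at an unadjusted *P* under 0.05 by limma was Vim, which was higher in the dKO, at 0.23 (SE 0.10). Interneuron and ganglionic eminence markers summed to 15531, 14494 and 19321 against 12095, 17120 and 14246, with wild-type replicate 3 the highest wild-type library for 6 of 8. Their most abundant gene, Npy, was instead lowest there among the wild-type libraries, at 6155, 5391 and 5252, while Sst stood at 2126, 2015 and 4924. Mural markers, led by Rgs5, summed to 9126, 8217 and 9012 against 7555, 8168 and 6456, and erythroid markers, led by Hba-a1, to 28927, 26438 and 34961 against 28909, 30645 and 38530. Choroid plexus markers were near the floor, with sums of 33.3 to 133 normalized counts and 5 of 8 below the minimum for testing. No gene of these lists was at 0 in all libraries. In these bulk samples, fewer cells of a type and less RNA per cell cannot be told apart, and the part of other cells in the values of the members was not tested. Without wild-type replicate 3 and dKO replicate 2, the libraries with the most striatal marker reads, 0 of 8 members were called by limma. On the log2 scale Fos then gave 0.85, Fosb 1.27, Egr1 −0.44, Egr2 −1.11, Npas4 −2.57, Nr4a1 −0.10, Ier2 0.37 and Dusp1 0.47. The log2 deviations of the libraries also followed exon length across 13956 genes, with Spearman correlations of 0.22, −0.10 and −0.18 in wild type and 0.31, −0.22 and −0.12 in the dKO. Without wild-type replicate 1 and dKO replicate 1, where that correlation was highest, 0 of 8 members were called. Fosb gave 2.55 (adjusted *P* 0.0589 by limma), Fos 1.01, Egr1 −0.63, Egr2 −0.22, Npas4 −1.15, Nr4a1 −0.37, Ier2 0.01 and Dusp1 0.20 on the log2 scale.

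Sequence upstream of the gene start was read for 8 of the 10 listed genes. The set of RefSeq promoter sequences used here (GRCm38.p6) held no entry for Egr1 and Ier2. Windows were the 250 bases before each start, and both strands were searched. The half-site TGACG of the cAMP response element, which CREB binds, was in a window of 7 of the 8 genes, all but Jun, and in 9 of their 12 windows, of which 5 are starts of Egr2 and 3 of those hits are nearly the same Egr2 sequence, where 17.8% of all 32851 windows hold it. The full element TGACGTCA, which contains the half-site on both strands, was in that of Dusp1 alone, and in 1.55% of all windows. The CArG box, bound by the serum response factor, was found for Egr2 alone and in 1.47% of all windows, the EGR site GCGGGGGCG for Fosb and Nr4a1 and in 2.57%, and the AP-1 site TGANTCA for 0 of 8 genes and in 6.75%. The windows of Fosb, Fos, Nr4a1 and Dusp1 are given as examples that hold the half-site, which is in capitals. They lie at chr7:19310052-19310295 on the minus strand for Fosb, chr12:85473640-85473889 on the plus strand for Fos, chr15:101266596-101266845 on the plus strand for Nr4a1 and chr17:26508520-26508722 on the minus strand for Dusp1, where bases that lie in an exon of another transcript were left off for Fosb and Dusp1.
Fosb: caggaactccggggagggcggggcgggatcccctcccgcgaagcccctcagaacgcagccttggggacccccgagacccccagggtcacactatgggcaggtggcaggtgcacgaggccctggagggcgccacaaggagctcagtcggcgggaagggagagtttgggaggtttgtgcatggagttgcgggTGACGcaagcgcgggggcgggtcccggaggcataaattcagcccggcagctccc
Fos: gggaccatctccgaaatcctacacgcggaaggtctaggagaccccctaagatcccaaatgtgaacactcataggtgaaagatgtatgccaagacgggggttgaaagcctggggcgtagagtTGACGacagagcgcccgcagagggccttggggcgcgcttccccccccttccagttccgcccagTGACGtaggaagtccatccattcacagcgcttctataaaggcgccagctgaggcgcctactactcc
Nr4a1: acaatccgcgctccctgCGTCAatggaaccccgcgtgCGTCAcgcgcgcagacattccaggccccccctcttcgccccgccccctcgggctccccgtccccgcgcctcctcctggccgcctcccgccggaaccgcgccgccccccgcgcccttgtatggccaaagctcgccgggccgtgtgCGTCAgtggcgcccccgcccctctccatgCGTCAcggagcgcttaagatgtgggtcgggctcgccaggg
Dusp1: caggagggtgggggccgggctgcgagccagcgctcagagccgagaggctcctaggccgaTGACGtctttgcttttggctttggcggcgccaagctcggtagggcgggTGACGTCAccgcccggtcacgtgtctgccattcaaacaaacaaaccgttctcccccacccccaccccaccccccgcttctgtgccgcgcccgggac
In Fosb the half-site begins 60 bases before the start, in Fos half-sites begin 129 and 66 bases before it, and in Nr4a1 they begin 233, 213, 69 and 40 bases before it. In Dusp1 the full element begins 143 bases before the start.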

How the data were processed

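PolyA+ RNA of 6 cortex samples was sequenced from stranded mRNA libraries as paired ends. Per the labels, reads were mapped to mm10 with STAR 2.7.5a, with FastQC, Picard, SAMtools and DESeq2 also named; the counting program and its strand setting were not given in the sources used here. The authors deposited a signal per gene feature, counts divided by a size factor per library. All values were whole multiples of 1 read within 0.05 (100%).

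Genotypes were compared with limma 3.58.1 (lmFit, eBayes with trend and robust, R 4.3.3) on log2(normalized count + 1), a scale on which fold changes of low genes depend on the added 1, two-sided, for the 18970 features whose mean reached 10, with Benjamini-Hochberg adjustment over all of them and a threshold of 0.05. Fits were tested on simulated data, with changes only in features with a mean of at least 50. Levels as low as those of Egr2 and Npas4 were thus not covered. An exact permutation test (two-sided) was added for each member. Alternatives were other pseudocounts, filters and scalings, edgeR 4.0.16 and DESeq2 1.42.0 on recovered reads, a replicate block, and each library left out; a pair of alternatives without libraries that stood apart was chosen after seeing the data. The members and lists were chosen with earlier results of these data known. Beyond the members, the rule for named genes took up to 3 genes per list with the greatest absolute log2 fold change and a mean of at least 50, the targeted genes and the 8 features most like Fos, of which 1 is not reported here. Not every gene it took is described. The most abundant gene of each marker list, and genes said in the text to be named after their values were seen, fall outside the rule. Exon lengths came from GENCODE M21, and promoters from RefSeq GRCm38.p6. Python 3.11.15 with scipy 1.17.1, numpy 2.4.6, pandas 2.3.3 and matplotlib 3.10.9 was used for the rest.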

Additional observations from a re-analysis of the deposited data

How the results depend on the processing

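Fosb, Egr2 and Npas4 rest on few reads (2 to 37 per library for Npas4), and with 3 libraries per genotype the 95% confidence interval of Npas4 ran from −3.47 to −0.15 on the log2 scale. In the main test 19 features were called. Without the trend and robust options limma called 7, DESeq2 called 202 and the fit with a replicate block called 9. Without the libraries with the most striatal marker reads 8 were called, and without those with the highest length correlation 5. With each library left out in turn, 7 (without dKO replicate 3) to 46 (without dKO replicate 1) were called. The number of immediate early genes called was 0 in the main test, 1 by DESeq2 (Fosb) and 0 to 1 with each library left out, the 1 being Fosb without dKO replicate 1. The cause was not tested. Their median log2 fold change, −0.08 in the main test, lay between −0.19 and 0.11 when single libraries were dropped and between −0.12 and 0.26 under the other alternatives. The 0.26 came from the filter at a mean of at least 50, which left 6 members. With all 8 members the highest of those other alternatives was 0.13. No member reversed its direction under the 19 alternatives, and Egr2 and Npas4 gave no value at a mean of at least 50. Libraries with the same replicate number correlated at 0.10, −0.23 and −0.08 in their deviations from the genotype means. Those with different numbers correlated at −0.14 to 0.21. Deviations from means of 3 libraries are tied to each other, so these values cannot decide whether the numbers pair the samples. The labels do not say so either, and the replicate block called 0 of 8 members.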
